A study of Mus musculus with 4 samples.

Results

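The transcripts described here are those of 8 genes that mark fibroblasts and mesothelium, read from RNA of mouse peritoneal macrophages. Dcn, Lum, Col1a1, Col1a2, Col3a1 and Sparc are the 6 fibroblast genes, and Msln and Upk3b are the 2 mesothelial genes. Every probe set whose only gene symbol in the platform annotation is one of these names was taken, which gave 16 of the 45037 non-control probe sets and 8 of 18193 named genes. Thioglycollate-elicited peritoneal macrophages are recruited to the cavity by an injected irritant and were selected here by adherence to a dish. KO cells came from LysM Cre/+:Setdb1 fl/fl mice and WT cells from +/+:Setdb1 fl/fl mice, so that both carried the floxed Setdb1 alleles, on the C57BL6/J strain. LysM Cre is driven by the lysozyme gene of myeloid cells, mainly macrophages and neutrophils, and its activity in fibroblasts or mesothelial cells was not measured here. The cells of each genotype were exposed for 4 h to lipid A, the part of bacterial lipopolysaccharide that activates TLR4, or to vehicle. The concentration of lipid A was 10 ng/ml in the series description and 10 µg/ml in the sample labels, and the age of the mice and the number behind each array are not given in the sources used here. Total RNA of each of the 4 conditions (KO lipid A, KO vehicle, WT lipid A and WT vehicle) was hybridised to 1 Affymetrix mouse expression array, so no difference has a replicate check and no p-value is given.

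Fibroblasts build the fibrous matrix of connective tissue. Type I collagen is a triple helix of the chains encoded by Col1a1 and Col1a2, and type III collagen, encoded by Col3a1, forms fibrils with it. Decorin (Dcn) and lumican (Lum) are small leucine-rich proteoglycans that sit on these fibrils and shape their spacing, and Sparc encodes a secreted protein that binds collagen and takes part in its assembly. Mesothelial cells form the single-layered lining of the peritoneal cavity, and mesothelin (Msln), a surface glycoprotein, and uroplakin 3b (Upk3b), a membrane protein, are used as their markers. None of the 8 genes is a macrophage marker. In bulk RNA such as this, fewer cells of a type and less RNA per cell cannot be told apart.

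The array values are probe set signals, that is, linear fluorescence intensities summarised over the probes of a set, and they are given without a unit. The median signal of all probe sets was 75.8 with lipid A and 84.2 with vehicle in KO, against 74.8 with lipid A and 65.1 with vehicle in WT. A signal at or above the median of its array is called detected below, and signals under it are close to background and give no measured fold. Of the 16 probe sets, 5 were detected on all 4 arrays, 1 on 3, 4 on 2, 1 on 1 and 5 on none. Intact RNA keeps the 3' over 5' signal of control transcripts low. This quotient was 1.79 with lipid A and 2.19 with vehicle in KO, against 2.09 with lipid A and 2.00 with vehicle in WT for Actb, and 1.06 with lipid A and 1.35 with vehicle in KO, against 1.07 with lipid A and 0.945 with vehicle in WT for Gapdh. It was highest on the KO vehicle array for both transcripts, and its part in the vehicle comparison was not tested. The preparation had the markers of macrophages, with 8 of 8 listed macrophage genes detected on all 4 arrays. Cd68, a lysosomal glycoprotein of macrophages, gave 45401 with lipid A and 45608 with vehicle in KO, against 56802 with lipid A and 50125 with vehicle in WT. Adgre1, which encodes F4/80, gave 6633 with lipid A and 3726 with vehicle in KO, against 9216 with lipid A and 10187 with vehicle in WT, so this macrophage marker was itself 2.73-fold lower in KO under vehicle and 1.39-fold lower under lipid A. The highest signal of any probe set of the 8 genes was 553, at the 79.5th percentile of its array. Setdb1, the H3K9 methyltransferase gene deleted in KO mice, gave 386 with lipid A and 346 with vehicle in KO, against 521 with lipid A and 589 with vehicle in WT on its brightest probe set, and because the place of this probe set relative to the deleted exons is not known here, it does not check the labels.

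The 5 genes whose brightest probe set was detected on all 4 arrays were Dcn, Col1a1, Col1a2, Col3a1 and Sparc, all from the fibroblast group. Lum was detected on the WT arrays only and Msln on the KO arrays only, while Upk3b was detected on none. The label of the set therefore held for the fibroblast genes at low to middle signal, whereas its mesothelial side was at or near background.

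In the proteoglycan pair, Dcn was the gene with the widest gap between genotypes among the 5. It gave 172 with lipid A and 138 with vehicle in KO, against 496 with lipid A and 553 with vehicle in WT. Both KO signals were far under both WT signals, and the lower WT signal was 2.87 times the higher KO signal. Dcn was 4.02-fold lower in KO macrophages relative to WT macrophages under vehicle (log2 difference -2.01) and 2.87-fold lower under lipid A (-1.52). Its place on the array moved in the same way, at the 66.9th and 61.4th percentile of all probe sets in KO lipid A and KO vehicle, against the 79.1st and 79.5th in WT lipid A and WT vehicle. A second Dcn probe set was under the median on every array, at 42.4 with lipid A and 1.98 with vehicle in KO, against 12.3 with lipid A and 42.8 with vehicle in WT, and gives no measured fold. Averaging both probe sets turned the lipid A comparison of Dcn to a log2 difference of 0.13.

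Lum lies next to Dcn on chromosome 10 and was measured by 1 probe set. It gave 50.0 with lipid A and 3.94 with vehicle in KO, against 81.0 with lipid A and 68.3 with vehicle in WT. The 2 KO signals were under their array medians and the 2 WT signals just above theirs. Set against the KO array median, Lum was at least 1.07-fold lower in KO macrophages under lipid A, and no fold is given under vehicle because the WT signal was under the KO array median. In GRCm38.p6 as annotated by RefSeq, Dcn lies at chr10:97479500-97518163 and Lum at chr10:97565501-97572703, with 47337 bases between them and 0 other genes listed there.

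**Figure D1:**
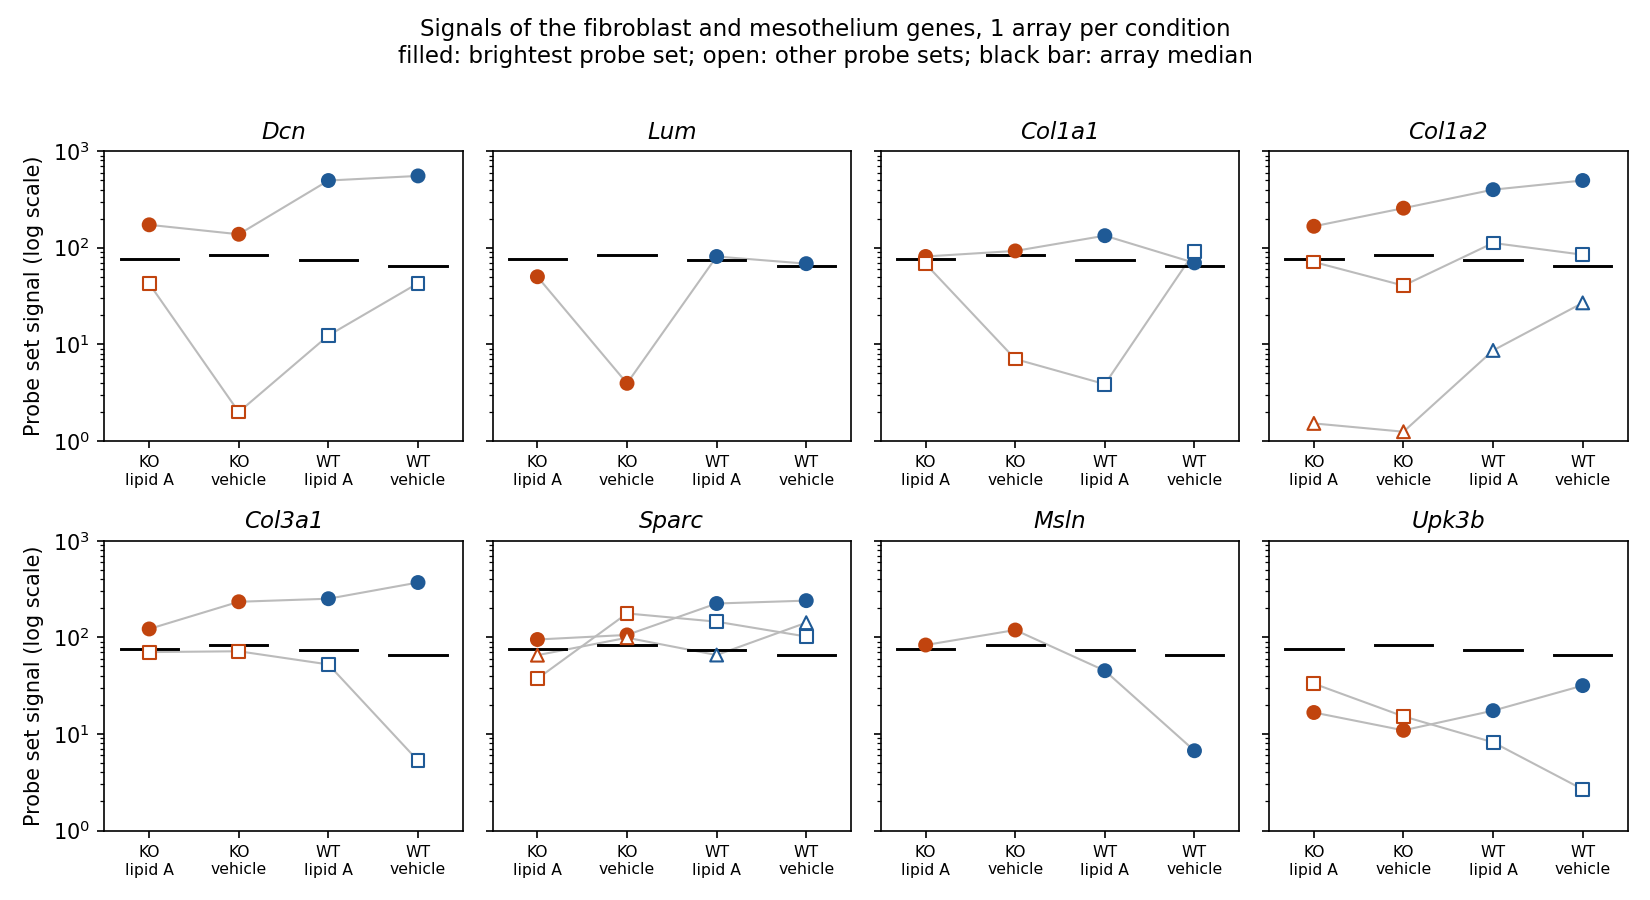
Probe set signals (log axis, no unit) of the 8 genes on the KO lipid A, KO vehicle, WT lipid A and WT vehicle arrays, with 1 array per condition and so no error bars. Filled symbols are the brightest probe set of a gene, open symbols its other probe sets, grey lines join the points of a probe set and black bars mark the median signal of each array; the filled points of Dcn, Lum, Col1a2, Col3a1 and Sparc are lower on both KO arrays than on both WT arrays, those of Col1a1 overlap, and Upk3b stays under every bar.

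Among the collagen chains, Col1a2 gave 167 with lipid A and 256 with vehicle in KO, against 399 with lipid A and 496 with vehicle in WT. Both KO signals were lower than both WT signals, and the lower WT signal was 1.55 times the higher KO signal. Col1a2 was 1.93-fold lower in KO macrophages under vehicle (log2 difference -0.95) and 2.39-fold lower under lipid A (-1.26). A second Col1a2 probe set was dimmer and gave 71.0 with lipid A and 40.5 with vehicle in KO, against 112 with lipid A and 84.6 with vehicle in WT. It separated the genotypes in the same direction, with both KO signals under the array median and both WT signals above it, at least 1.48-fold lower in KO under lipid A. The last Col1a2 probe set stayed at 26.8 or less on every array.

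Col3a1 gave 122 with lipid A and 234 with vehicle in KO, against 251 with lipid A and 370 with vehicle in WT. Both KO signals were lower than both WT signals, but KO vehicle and WT lipid A were only 1.08-fold apart. Within a treatment, Col3a1 was 1.58-fold lower in KO macrophages under vehicle (log2 difference -0.66) and 2.06-fold lower under lipid A (-1.04). Its other probe set was under the median on all 4 arrays, at 70.4 with lipid A and 71.8 with vehicle in KO, against 52.4 with lipid A and 5.28 with vehicle in WT. Averaging both probe sets turned the log2 difference of Col3a1 under vehicle to 1.55 and left -0.31 under lipid A.

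Col1a1, which encodes the partner chain of Col1a2, did not separate the genotypes. It gave 81.1 with lipid A and 92.5 with vehicle in KO, against 133 with lipid A and 69.6 with vehicle in WT, all above the array medians. The 2 KO values lay between the 2 WT values, which were the highest with lipid A and the lowest with vehicle. Col1a1 was 1.33-fold higher in KO macrophages under vehicle (log2 difference 0.41) and 1.64-fold lower under lipid A (-0.72). Its second probe set was detected on the WT vehicle array only, with 67.9 with lipid A and 7.03 with vehicle in KO, against 3.86 with lipid A and 90.5 with vehicle in WT. Averaging both probe sets turned both of its log2 differences, to -1.64 under vehicle and 1.71 under lipid A.

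Sparc gave 95.0 with lipid A and 106 with vehicle in KO, against 224 with lipid A and 240 with vehicle in WT on its brightest probe set. The genotypes were well apart and the treatments close together, the lower WT signal being 2.12 times the higher KO signal. Sparc was 2.27-fold lower in KO macrophages under vehicle (log2 difference -1.18) and 2.36-fold lower under lipid A (-1.24). Its other 2 probe sets did not give this pattern. The first of them read 37.4 with lipid A and 177 with vehicle in KO, against 145 with lipid A and 102 with vehicle in WT, so it was 1.73-fold higher in KO under vehicle and at least 1.92-fold lower in KO under lipid A. The other read 65.4 with lipid A and 99.1 with vehicle in KO, against 65.6 with lipid A and 142 with vehicle in WT, 1.43-fold lower in KO under vehicle and under the array median in both genotypes under lipid A. Averaged over the 3 probe sets, the log2 difference of Sparc was -0.30 under vehicle and -1.07 under lipid A.

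The mesothelial genes were at or near background, so whether they followed the fibroblast genes cannot be read. Msln gave 83.3 with lipid A and 119 with vehicle in KO, against 45.2 with lipid A and 6.70 with vehicle in WT. Both KO signals were a little above their array medians and both WT signals were under theirs, so Msln was at least 1.83-fold higher in KO macrophages under vehicle and at least 1.11-fold higher under lipid A. Upk3b gave 16.7 with lipid A and 10.9 with vehicle in KO, against 17.4 with lipid A and 31.7 with vehicle in WT on its brighter probe set. Its other probe set read 33.2 with lipid A and 15.2 with vehicle in KO, against 8.19 with lipid A and 2.67 with vehicle in WT, so neither showed Upk3b above background in any condition.

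Counted by gene on the brightest probe sets, 7 of the 8 genes were detected on at least 1 array of each genotype comparison. Under vehicle, 3 of 7 (Dcn, Lum and Sparc) were over 2-fold lower in KO macrophages, where 6.17% of the 12002 genes detected in this comparison were, and 1 of 7 (Msln) was over 2-fold higher, where 11.1% were. Their median log2 difference was -0.95, against 0.10 over all detected genes. Under lipid A, 4 of 7 (Dcn, Col1a2, Col3a1 and Sparc) were over 2-fold lower in KO macrophages, where 10.3% of 12335 detected genes were, and 0 of 7 were over 2-fold higher, where 10.6% were. Their median was -1.04, against -0.01 over all detected genes. Lum and Msln passed detection only through the genotype in which they read higher, so they had to differ and their calls support nothing. Without them, among the 5 genes with both arrays at or above the median, 2 were over 2-fold lower in KO under vehicle and 0 higher, and 4 were lower under lipid A and 0 higher. With the mean of all probe sets of a gene in place of the brightest, 1 gene rather than 4 was over 2-fold lower in KO under lipid A, and with arrays centred on their medians 5 rather than 3 were lower under vehicle.

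The vehicle and the lipid A comparison use different arrays, and 2 of 7 genes, Dcn and Sparc, were over 2-fold lower in both, a pattern held by 1.45% of the 10802 genes detected in both. Whether the 2 arrays of a genotype come from different mice is not given, so agreement between treatments is no replicate check of genotype. Both KO arrays were below both WT arrays for 5 of 7 genes (Dcn, Lum, Col1a2, Col3a1 and Sparc), where 11.9% of 13567 genes detected on any array had this order. Lum and Msln again entered through 1 genotype, and with signals under the median raised to it 4 genes had the order. For 1 of 7 (Msln) both KO arrays were above both WT arrays, where 19.7% of genes were. Over all 16 probe sets, with those near background included, 8 had both KO signals below both WT signals and 3 had both above. The 8 include the dimmest Col1a2 and the brighter Upk3b probe set, which were under the median on every array. The share of all probe sets with either order was not computed, so these counts have no reference to be set against. Averaged over probe sets, 3 genes rather than 5 had both KO arrays below both WT arrays.

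Because the detected genes range widely in signal, the 5 genes detected on all 4 arrays were also set beside the 1938 genes of like level, those detected on all 4 arrays with a geometric mean signal between 91.3 and 303. Of these, 1.5% were over 2-fold lower in KO under vehicle, where 2 of the 5 genes (Dcn and Sparc) were, and 5.62% were so under lipid A, where 4 of the 5 were. Both KO arrays were below both WT arrays for 9.44% of them and for 4 of the 5 genes, and in both counts of 4 Col1a1 was the exception. By the rank of the log2 difference among all detected genes, Dcn lay at the 2.82nd percentile under vehicle and the 5.99th under lipid A, Sparc at the 5.07th and the 7.87th, Col1a2 at the 6.49th and the 7.64th, and Col3a1 at the 9.80th and the 9.90th. Col1a1 lay at the 72.8th percentile under vehicle and the 15.5th under lipid A. The summed signal of the 5 brightest probe sets was 637 with lipid A and 826 with vehicle in KO, against 1503 with lipid A and 1729 with vehicle in WT, which put the sum 2.36-fold lower in KO under lipid A and 2.09-fold lower under vehicle.

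In place of replicates, the disagreement between probe sets of the same gene gives a scale of measurement error. The SD of the log2 difference between such probe sets was 0.42 over 4413 genes for KO over WT under vehicle and 0.41 over 4260 genes under lipid A, that is, factors of 1.34 and 1.33. On the brightest probe sets, the genotype differences of Dcn and Col1a2 were more than 2 of these SDs under both treatments, that of Col3a1 was so under lipid A only, and those of Col1a1 were so under neither. The brightest Sparc probe set was also beyond 2 of these SDs, but the 3 Sparc probe sets, all detected under vehicle, gave -1.18, 0.79 and -0.52 there, so Sparc disagreed with itself by more than the scale. The scale is technical and holds no spread between mice or dishes.

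**Figure D2:**
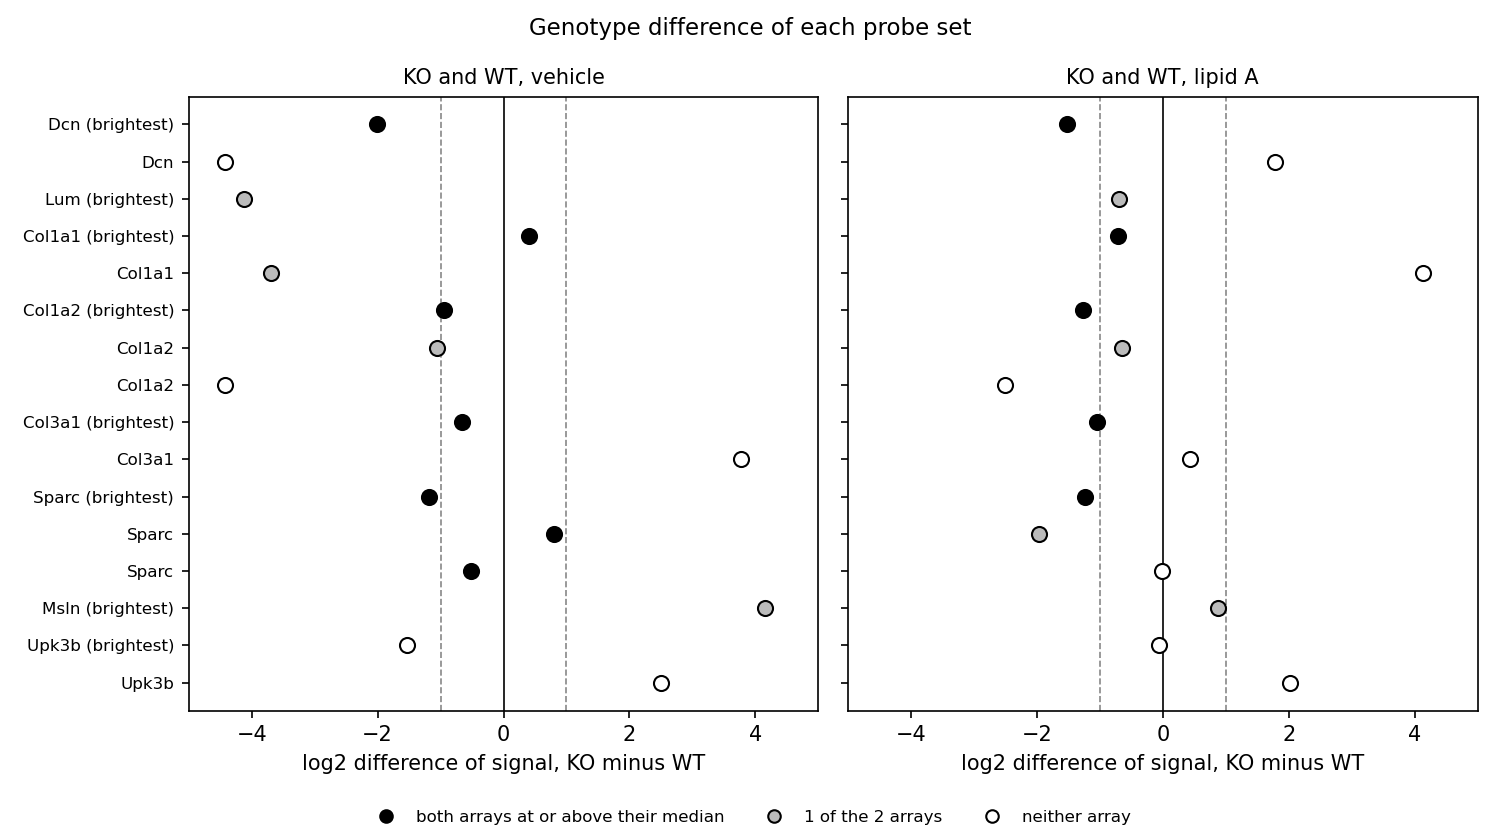
Log2 difference of signal, KO minus WT, under vehicle (left) and lipid A (right) for each of the 16 probe sets, with dashed lines at a 2-fold difference. Black points have both arrays at or above their median, grey points 1 array and white points neither; in the lipid A panel all 5 black points lie left of 0, and the points at or beyond 4 on either side are grey or white.

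Of the 8 genes, 4 have an entry in the RefSeq promoter table for GRCm38.p6 used here (Col1a2, Col3a1, Sparc and Upk3b), and Dcn, Lum, Col1a1 and Msln are named only. The 250 bases before the annotated start of Col1a2 (chr6:4505368-4505617, plus strand), Col3a1 (chr1:45311288-45311537, plus strand) and Sparc (chr11:55420081-55420330, minus strand) are shown because these 3 genes had both KO arrays below both WT arrays. Capitals mark matches on either strand to 3 short elements found near many start sites, which are TATAAA for the TATA box, CCAAT for the box of that name and GGGCGG for the GC box.
Col1a2: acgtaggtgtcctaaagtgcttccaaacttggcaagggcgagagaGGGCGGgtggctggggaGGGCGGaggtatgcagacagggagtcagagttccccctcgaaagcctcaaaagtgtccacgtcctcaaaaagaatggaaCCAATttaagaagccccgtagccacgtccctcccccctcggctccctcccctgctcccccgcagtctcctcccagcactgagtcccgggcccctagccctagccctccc
Col3a1: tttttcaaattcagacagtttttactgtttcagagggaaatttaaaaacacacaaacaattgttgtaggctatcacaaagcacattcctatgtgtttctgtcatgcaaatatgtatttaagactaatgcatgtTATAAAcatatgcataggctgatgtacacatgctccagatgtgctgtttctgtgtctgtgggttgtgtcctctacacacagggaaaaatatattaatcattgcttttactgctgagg
Sparc: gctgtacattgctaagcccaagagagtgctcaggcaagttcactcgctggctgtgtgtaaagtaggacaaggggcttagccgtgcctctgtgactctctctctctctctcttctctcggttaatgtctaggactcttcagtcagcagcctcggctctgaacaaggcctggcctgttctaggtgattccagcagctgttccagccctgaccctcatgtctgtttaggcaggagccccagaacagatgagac
The 3 windows have little in common by these measures. Their GC content was 62% for Col1a2, 35.2% for Col3a1 and 54% for Sparc, against a median of 52.4% over all windows of this length. Col1a2 had 2 GC boxes and a CCAAT box, Col3a1 had a TATA box, and Sparc had none of the 3, nor had the window of Upk3b. GC boxes occur in 32.7%, CCAAT boxes in 33.8% and TATA boxes in 12.4% of the 32851 windows, so a match describes these letters and marks no site of binding.

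On the brightest probe sets, no detected gene of the set differed over 2-fold with lipid A. In KO macrophages 0 of 6 detected genes were over 2-fold lower and 0 over 2-fold higher with lipid A, where 16.0% and 11.2% of 12293 detected genes were, and their median log2 difference was -0.35, against -0.20 over all. In WT macrophages 0 of 6 detected genes were over 2-fold lower and 0 over 2-fold higher, where 8.94% and 11.8% of 12129 detected genes were, and their median was -0.13, against -0.08 over all. With 6 genes, counts of 0 are near these shares and say little. The 2 genotypes have their own pairs of arrays, but each of these responses shares arrays with the genotype comparisons above.

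Col1a2 and Col3a1 read lower with lipid A in both genotypes. Col1a2 was 1.54-fold lower with lipid A in KO macrophages and 1.24-fold lower in WT macrophages, and Col3a1 was 1.91-fold lower in KO and 1.47-fold lower in WT. On its brightest probe set Sparc barely moved, at 1.12-fold lower in KO and 1.07-fold lower in WT. The next brightest Sparc probe set was at least 2.34-fold lower with lipid A in KO and 1.43-fold higher in WT. The dimmest Sparc probe set was at least 1.31-fold lower in KO and at least 1.90-fold lower in WT. With lipid A, Dcn was 1.25-fold higher in KO and 1.12-fold lower in WT, both less than the SD between probe sets of a gene, which was 0.46 in KO and 0.39 in WT on the log2 scale. Col1a1 was 1.14-fold lower with lipid A in KO and 1.91-fold higher in WT. The log2 response in KO minus that in WT was 0.48 for Dcn, -1.13 for Col1a1, -0.31 for Col1a2, -0.38 for Col3a1 and -0.06 for Sparc, and none of these differences of responses could be tested. Lum was under the median on both KO arrays and was 1.19-fold higher in WT with lipid A, and Msln was 1.43-fold lower with lipid A in KO and under the median on both WT arrays.

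**Figure D3:**
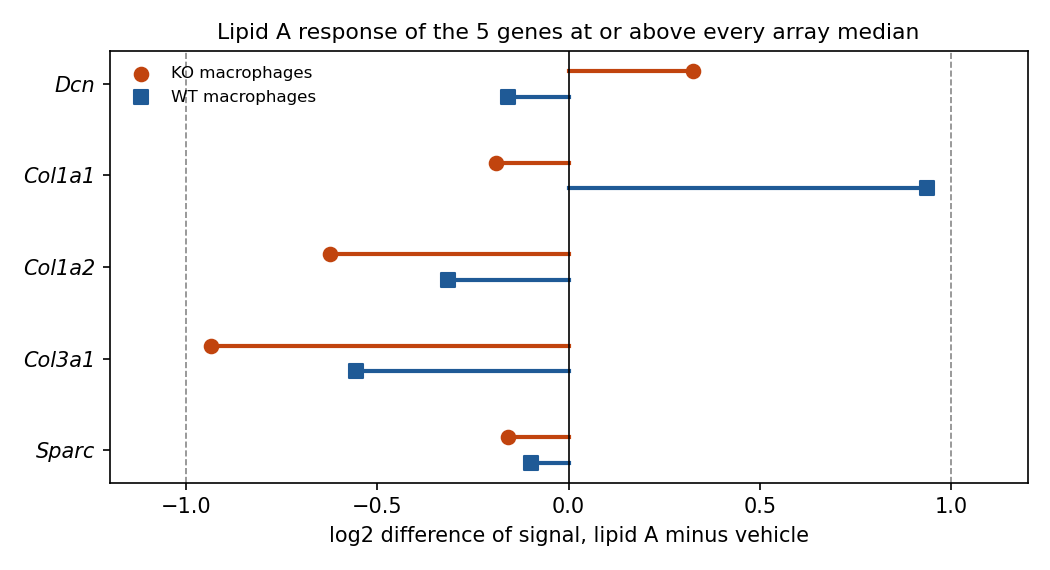
Log2 difference of signal, lipid A minus vehicle, of the 5 genes detected on all 4 arrays in KO macrophages (circles) and WT macrophages (squares), 1 array per condition, with dashed lines at a 2-fold difference. Every point is inside the dashed lines; Dcn and Col1a1 have KO and WT on opposite sides of 0, and Col3a1 in KO (-0.94) and Col1a1 in WT (0.94) are the points farthest out.

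Other fibroblast genes were called in both directions, mostly on signals near background. Of 18 listed fibroblast genes, 12 were detected on some array but only 3 on all 4, and the summaries below include signals near background. In KO relative to WT, 3 of 9 detected fibroblast genes were over 2-fold lower and 3 of 9 over 2-fold higher under vehicle (median log2 difference -0.14). Of all detected genes 6.17% and 11.1% were. Under lipid A 4 of 11 were lower and 3 of 11 higher (median -0.57), where 10.3% and 10.6% of all detected genes were. Except for S100a4, each of these calls rests on a signal under its array median, so these genes passed detection through 1 genotype only. Fstl1, which encodes a secreted glycoprotein of the Sparc family abundant in fibroblasts, was bright and had both KO signals below both WT signals. It gave 1690 with lipid A and 1203 with vehicle in KO, against 2502 with lipid A and 2187 with vehicle in WT, 1.82-fold lower in KO under vehicle and 1.48-fold lower under lipid A. A second probe set of Fstl1 read 1365 with lipid A and 1013 with vehicle in KO, against 2447 with lipid A and 2467 with vehicle in WT.

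Pdgfra, a growth factor receptor that marks fibroblasts and is named here after its values were seen, gave 47.0 with lipid A and 44.1 with vehicle in KO, against 126 with lipid A and 190 with vehicle in WT. On this brightest probe set it was detected in WT only, at least 1.66-fold lower in KO under lipid A and at least 2.25-fold lower under vehicle. Another Pdgfra probe set ran the other way under lipid A, with 110 in KO and 10.4 in WT. Thy1, a surface glycoprotein of fibroblasts and T cells, also named after its values were seen, gave 96.6 with lipid A and 197 with vehicle in KO, against 3.99 with lipid A and 32.1 with vehicle in WT, higher in KO by at least 1.29-fold under lipid A and by at least 3.03-fold under vehicle. S100a4, a calcium-binding protein gene used as a fibroblast marker and also expressed by macrophages, read higher in KO as well. It gave 16519 with lipid A and 27168 with vehicle in KO, against 5538 with lipid A and 9209 with vehicle in WT, higher in KO by 2.98-fold under lipid A and by 2.95-fold under vehicle.

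Lox, whose product cross-links collagen, and Pdgfrb, a receptor of fibroblasts and pericytes, were higher with lipid A on their brightest probe set. Lox gave 285 with lipid A and 9.15 with vehicle in KO, against 482 with lipid A and 110 with vehicle in WT, higher with lipid A by at least 3.39-fold in KO and by 4.40-fold in WT. It was 1.69-fold lower in KO under lipid A and at least 1.30-fold lower under vehicle. Its other 2 probe sets differed, one with 205 with lipid A and 4.14 with vehicle in KO, against 269 with lipid A and 189 with vehicle in WT, and one with 91.0 with lipid A and 100 with vehicle in KO, against 51.2 with lipid A and 37.9 with vehicle in WT, the last showing no higher signal with lipid A in KO. Pdgfrb gave 469 with lipid A and 69.7 with vehicle in KO, against 378 with lipid A and 14.4 with vehicle in WT, higher with lipid A by at least 5.58-fold in KO and by at least 5.80-fold in WT.

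The genes that make and process collagen showed no shared shift with genotype. Of 12 other collagen genes, 11 were detected on some array but only Col6a2 and Col18a1 on all 4. For 0 of the 12 both KO arrays were below both WT arrays, where 11.9% of all detected genes had this order, so the 0 says little. Over 2-fold lower in KO were 2 of 10 detected under vehicle and 4 of 11 under lipid A, where 6.17% and 10.3% of all detected genes were. Over 2-fold higher were 1 of 10 and 3 of 11, where 11.1% and 10.6% were. The medians of the collagen genes were 0.11 and 0.40. Each of these calls rests on a signal under its array median, so they support no shift. Col6a2, a chain of microfibril-forming type VI collagen, gave 232 with lipid A and 133 with vehicle in KO, against 176 with lipid A and 146 with vehicle in WT, so the genotypes overlapped.

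Of the collagen processing genes, 16 of 18 had a probe set, and 12 were detected on some array. Over 2-fold lower in KO were 1 of 11 (Lox) under vehicle and 1 of 12 (Serpinh1, the collagen chaperone HSP47) under lipid A. Of all detected genes 6.17% and 10.3% were. Over 2-fold higher were 0 of 11 and 2 of 12, where 11.1% and 10.6% of all detected genes were. The medians of the list were 0.22 and -0.35. Both of the lower calls rest on a KO signal under the array median, and against that median they are at least 1.30-fold for Lox and at least 1.60-fold for Serpinh1. A second Serpinh1 probe set gave 89.3 in KO and 90.8 in WT under lipid A. The brightest genes of the list, P4hb, Ppib, Crtap and Plod3, which take part in hydroxylation and folding of collagen chains, differed by less than 2-fold. Of these, Crtap had both KO arrays above both WT arrays, with 1447 with lipid A and 2239 with vehicle in KO, against 1402 with lipid A and 1343 with vehicle in WT.

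**Figure D4:**
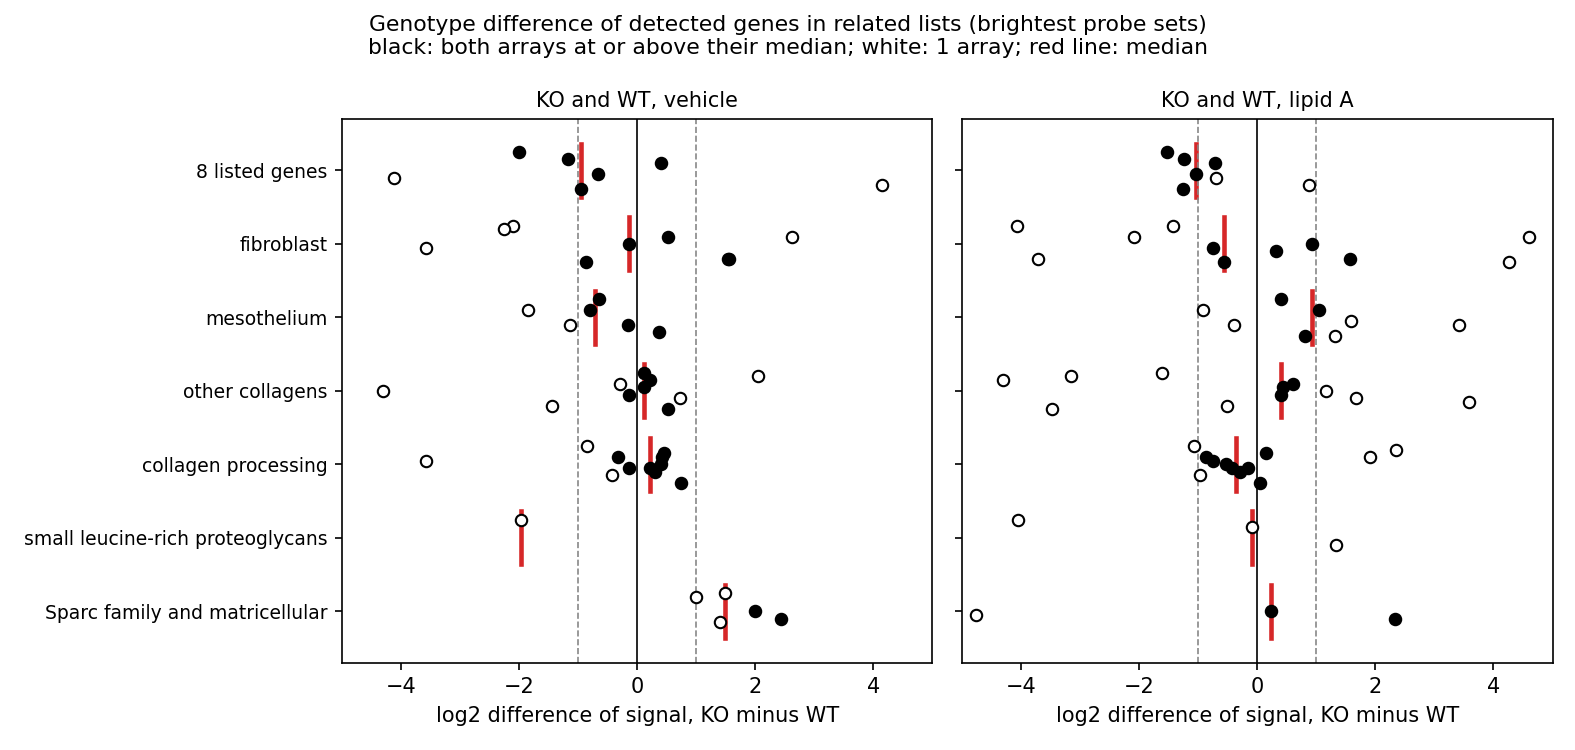
Log2 difference of signal, KO minus WT, under vehicle (left) and lipid A (right) for the detected genes of the 8-gene set and of 6 related lists, 1 point per gene on its brightest probe set. Black points have both arrays at or above their median, white points 1 array, red bars are medians and dashed lines a 2-fold difference; the 8-gene set has medians of -0.95 and -1.04, other collagens 0.11 and 0.40, and the Sparc family and matricellular genes 1.5 and 0.23.

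Most listed relatives of Dcn, Lum and Sparc were under the median on every array, and the detected ones ran in both directions. Fstl1, of the Sparc family but counted in the fibroblast list, had both KO signals below both WT signals on both of its probe sets. Of 8 other small leucine-rich proteoglycan genes, 3 were detected on any array. Bgn, the biglycan gene closest in kind to Dcn, gave 11.9 with lipid A and 45.3 with vehicle in KO, against 199 with lipid A and 178 with vehicle in WT. On this brightest probe set the KO signals were under and the WT signals above their medians, at least 2.62-fold lower in KO under lipid A and at least 2.11-fold lower under vehicle. The other Bgn probe sets read 5.10 and 7.92 in WT with lipid A, so they did not show that WT signal. Fmod ran the other way, with 81.8 with lipid A and 78.0 with vehicle in KO, against 32.4 and 55.6 in WT. It was detected on the KO lipid A array only, at least 1.09-fold higher there. Prelp, detected on the WT lipid A array only, read 72.6 in KO and 77.5 in WT with lipid A. Of 13 measured genes of the Sparc family and other matricellular proteins, which modulate the matrix without building it, 6 were detected. Under vehicle 5 of 5 detected were over 2-fold higher in KO (median 1.5), where 11.1% of all detected genes were. However, Thbs2, Postn and Ccn2 were detected on the KO vehicle array only, and against the WT array median they were higher by at least 1.30-fold, 1.34-fold and 1.43-fold. Under lipid A 1 of 3 was higher and 1 of 3 lower (median 0.23), where 10.6% and 10.3% of all detected genes were.

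Fn1, the fibronectin gene, which macrophages also express, had the brightest of these signals. It gave 6768 with lipid A and 5636 with vehicle in KO, against 1344 with lipid A and 1035 with vehicle in WT, higher in KO by 5.03-fold under lipid A and by 5.44-fold under vehicle.

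The wider mesothelial list was largely at background, as were Msln and Upk3b. Of 15 genes, 6 (Wt1, Krt19, Muc16, Nkain4, Gpm6a and Rspo1) were under the median on every array, Wt1 being a defining mesothelial factor. Only Pdpn and Aldh1a2 were detected on all 4. Under vehicle 2 of 6 detected (Upk1b and Calb2) were over 2-fold lower in KO, where 6.17% of all detected genes were. There 0 of 6 were higher, where 11.1% were, and the median of the 6 was -0.72. Under lipid A 0 of 8 were lower, where 10.3% were, and the median of the 8 was 0.92. The 4 of 8 higher, where 10.6% were, were Krt8, Krt18, Calb2 and Aldh1a2. Only the call of Aldh1a2 had both signals at or above the median, 2.05-fold higher in KO under lipid A. Under vehicle Aldh1a2 was 1.74-fold lower in KO. All other calls rest on a signal under its array median. Pdpn, a surface glycoprotein that inflammatory macrophages express too, gave 30630 with lipid A and 10562 with vehicle in KO, against 23122 with lipid A and 16479 with vehicle in WT, 1.56-fold lower in KO under vehicle but 1.32-fold higher under lipid A.

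Markers of other cells also differed between the genotypes, and their part in the differences of the 8 genes was not tested. Of 5 measured B cell markers, Cd79a, Cd79b and Ms4a1 were over 2-fold higher in KO under both treatments. Cd79a was under the median on both WT arrays, so it was higher in KO by at least 1.64-fold under vehicle and at least 2.49-fold under lipid A. Cd22 ran the other way, with 1012 with lipid A and 1618 with vehicle in KO, against 1880 with lipid A and 1949 with vehicle in WT, and made up most of the sum in WT. With all 5, the list summed to 4805 with lipid A and 5204 with vehicle in KO, against 2121 with lipid A and 2283 with vehicle in WT. The 4 measured T and NK cell markers summed to 393 with lipid A and 451 with vehicle in KO, against 147 with lipid A and 147 with vehicle in WT. Every WT signal of these markers was under its array median, so the WT sums are background. Cd3d, Cd3g and Cd3e were detected on KO arrays only and entered through that genotype, and Ncr1 was under the median on every array. The 6 measured neutrophil markers summed to 831 with lipid A and 942 with vehicle in KO, against 1929 with lipid A and 1918 with vehicle in WT, mostly from S100a8, which was 2.55-fold lower in KO under lipid A and 3.03-fold lower under vehicle. The list did not move as a group under vehicle (median 0.56). There 2 of 5 detected (S100a8 and Camp) were over 2-fold lower in KO, where 6.17% of all detected genes were. Another 2 of 5 (Elane and Ltf) were over 2-fold higher, where 11.1% were. Camp, Elane and Ltf were each detected in 1 genotype only, and S100a9 was under the median on every array. Of 7 smooth muscle and pericyte genes, Acta2, the smooth muscle actin gene that myofibroblasts also use, was the one detected on all 4 arrays. It gave 233 with lipid A and 150 with vehicle in KO, against 435 with lipid A and 504 with vehicle in WT, 1.86-fold lower in KO under lipid A and 3.37-fold lower under vehicle. Myh11 and Des, both near background, ran the other way, with both KO arrays above both WT arrays. Myh11 gave 68.9 with lipid A and 96.3 with vehicle in KO, against 17.5 and 16.4 in WT. Des gave 83.6 with lipid A and 92.7 with vehicle in KO, against 26.8 and 77.3 in WT. Of 6 endothelial genes, 3 were detected on any array and 1 of them, Cdh5, had both KO arrays below both WT arrays, where 11.9% of all detected genes had. Both KO signals of Cdh5 were under the median. A second Cdh5 probe set, under the median on every array, read 39.0 with lipid A and 79.1 with vehicle in KO, against 21.8 and 19.2 in WT. Kdr, the only endothelial gene detected on all 4 arrays, overlapped, with 147 with lipid A and 276 with vehicle in KO, against 189 and 210 in WT. Of the 8 macrophage genes, 5 (Adgre1, Lyz2, Cd68, Csf1r and Mertk) had both KO arrays below both WT arrays, where 11.9% of all detected genes had.

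The genes whose profile over the 4 arrays was most like the mean profile of the 7 detected genes were Mertk, Insl6, Hdac1, Srxn1 and Cfap57. Likeness was the root mean square difference of log2 signals after each gene was centred on its own mean, and it was 0.04 for Mertk, 0.05 for Insl6, 0.06 for Hdac1, 0.06 for Srxn1 and 0.07 for Cfap57, the smallest of 13560 genes ranked. None of these genes is a matrix gene, and Mertk, a receptor for apoptotic cells, was on the macrophage list. The 7-gene mean profile includes Lum and Msln, which were near background and stood at 1.48 and 1.83 from it. A ranking against the mean profile of the 5 genes detected on all 4 arrays was added after the values were seen. Its nearest genes were others, namely Adhfe1, Neurod2, Slc11a1, Abcc4 and Zfp651. Against the mean profile of the 5 genes detected on all 4 arrays, Sparc itself stood at 0.11, Col1a2 at 0.15, Col3a1 at 0.30, Dcn at 0.44 and Col1a1 at 0.55, and 190 of 13562 other genes lay within 0.25. Each of the 5 genes is part of that profile, so its distance is small in part by construction.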

How the data were processed

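RNA of 1 culture condition per array was measured on 4 Affymetrix arrays. Linear signal intensities per probe set were deposited in 1 table, and the program behind them is not given in the sources used. After trimming 2% of the values at either end, every array averaged 500.004, so whole arrays appear to have been scaled, and no further normalization was applied. No column of a sample was left unused (0 of them). Controls (64) were removed, and 34945 probe sets with 1 symbol in the platform annotation were named, of which 34741 matched a RefSeq gene. Each gene was represented by its brightest probe set, by mean log2 signal.

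Log2 differences were compared between KO and WT under each treatment and between lipid A and vehicle in each genotype, with detection when the higher signal reached its array median and a call beyond 2-fold. Named genes were the 8 genes and, drawn from a fixed rule, the up to 4 brightest of a related list, checks of the sample and the 5 nearest profiles. Others are named to spell out a count or, as marked, after their values were seen. The genes and lists were chosen with earlier results of these data known. Where 1 of the signals was under the median of its array, the fold is a bound against that median. The number of arrays limits the precision. Alternatives were other scalings, filters, a floor, probe set summaries and fold thresholds. The calls were tested on simulated differences. Python 3.11.15, numpy 2.4.6, pandas 2.3.3 and matplotlib 3.10.9 were used.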

Additional observations from a re-analysis of the deposited data

Results flagged for a closer look

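The response of 2 genes to lipid A had opposite signs in KO and WT macrophages. For Dcn the log2 difference, lipid A minus vehicle, was 0.33 in KO and -0.16 in WT, a difference of responses of 0.48. For Col1a1 it was -0.19 in KO and 0.94 in WT, a difference of responses of -1.13. With 1 array per condition neither difference was tested.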

How the results depend on the processing

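No paired analysis was possible because each condition has 1 array and its replicate number only names the sample, and for the same reason no array could be left out. A count within 1.5 times the reported one, or a log2 value within the SD between probe sets of a gene, was taken as close. Of the recomputed medians and counts, 94 were close, 28 moved and 2 changed sign beyond that SD, and of the differences of single genes 44 were close, 8 moved and 8 changed sign. The alternatives for the order of the arrays and for the differences of responses were chosen after seeing the data. Averaging all probe sets of a gene, dim ones included, changed most. With their mean log2 signal the KO over WT median was -1.64 under vehicle and -0.31 under lipid A (reported -0.95 and -1.04), with 2 genes over 2-fold higher under vehicle (reported 1) and 1 lower under lipid A (reported 4). The lipid A responses then had 1 gene lower and 1 higher in KO and likewise 1 and 1 in WT (reported 0 each). With the median of the probe sets 2 genes were higher under vehicle, the KO over WT median under lipid A was -0.48 with 1 gene lower, and the lipid A responses had 1 higher in KO and 1 lower and 1 higher in WT. Both summaries left 3 genes with both KO arrays below both WT arrays (reported 5). Both turned the KO over WT difference of Dcn under lipid A to 0.13 (reported -1.52), of Col3a1 under vehicle to 1.55 (reported -0.66), and of Col1a1 to -1.64 under vehicle and 1.71 under lipid A (reported 0.41 and -0.72). The second probe sets of Dcn and Col3a1 are under the median on every array. The median difference of responses of the 5 genes detected on all 4 arrays was 0.67 with the mean and 0.41 with the median (reported -0.31), and 0.04 with arrays centred on their medians. Centring arrays on their medians gave 5 genes lower in KO under vehicle (reported 3), and scaling on the 3 measured reference genes gave 1 higher with lipid A in WT. The array medians of KO and WT differed by 0.37 on the log2 scale under vehicle. The order of both KO arrays below both WT arrays held for 5 genes under each of the 3 other scalings and for 4 with low signals raised to the median. Requiring both arrays at or above the median gave 0 higher in KO under vehicle, no filter gave 1 higher with lipid A in each genotype, and raising low signals to the median gave a KO over WT median under vehicle of -0.18 with 0 higher. At 1.5-fold, 5 genes were lower under vehicle, 1 higher in KO under lipid A, 1 higher with lipid A in WT and 2 lower with lipid A in KO. At 3-fold, 0 were lower in KO under lipid A. Where no construction shows it, the cause was not tested. Signals near the array median limit Lum, Msln and Col1a1, and Upk3b could not be read.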
